A study of Homo sapiens with 6 samples.

Results

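Receptor tyrosine kinases are cell-surface receptors that read growth factors, ephrins and collagens. The members were the rows of the count table whose Ensembl gene IDs carry the symbols of a list of 57 human receptor tyrosine kinase genes. All 57 matched a row, of 58051 rows in all, and they were put into 16 groups, called families here. Some of these groups are mixed, such as RET with ROS1. The cells were A375, an established human melanoma line with a mutant BRAF gene. They were serum starved for 2 h and then received 10 ng/mL of recombinant human TGFB1 (TGFB1 group, 3 libraries) or the carrier solution of 4 mM HCl with 1 mg/mL BSA (Vehicle group, 3 libraries) for a further 2 h. The replicates are described as technical, so p-values measure the spread between libraries of a single cell line and not that between independent experiments.

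A receptor tyrosine kinase spans the membrane once, binds its ligand outside the cell and carries a tyrosine kinase inside it. Ligand binding brings receptor chains together, the kinases phosphorylate each other, and adaptor proteins dock on the phosphotyrosines and start the RAS-ERK and PI3K-AKT pathways. In melanoma these receptors are known as a route by which cells keep ERK or AKT signalling when mutant BRAF is inhibited, with EGFR, ERBB3, IGF1R, MET, PDGFRB and AXL the receptors most often named. TGF-beta itself signals through serine/threonine kinase receptors and SMAD proteins, which are not members.

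Library totals ran from 32458753 to 34895075 counts with TGFB1 and from 24713894 to 34374668 in Vehicle. Vehicle replicate 1 was the shallowest library. Of 10 melanoma and neural crest markers 8 passed the low-count filter, and 1 of these passed the test. MITF fell to 53.5 ± 2.01 counts scaled to a common library total (CPM) with TGFB1, against 62.7 ± 3.02 CPM in Vehicle (SD, n = 3 each, edgeR adjusted p = 0.0355). The log2 fold changes of the others were -0.78 for PMEL, -0.50 for DCT, -0.36 for SOX9, -0.11 for S100B and -0.05 for TFAP2A. MIA was at 0.02 and MLANA at 0.94. S100B had 54.6 CPM with TGFB1 and 58.9 CPM in Vehicle, while MLANA had at most 19 counts in any library and PMEL 44. TYR had at most 5 counts, and SOX10 was at 0 counts in all 6 libraries. Exons of POLR2F on the other strand cover 2.40% of the exonic bases of SOX10. Whether this 0 comes from the cells or from the counting was not tested. Of the other cell types whose receptors are in the list, the 6 blood cell markers summed to between 0.369 and 0.609 CPM with TGFB1 and between 0.532 and 0.690 CPM in Vehicle. Other genes on the same strand share 81.7% of the exonic bases of CD68, a blood cell marker, and 60.9% of those of MIA. The 6 endothelial markers summed to between 5.77 and 7.89 CPM with TGFB1 and between 4.83 and 6.58 CPM in Vehicle, most of it from ROBO4. The 6 epithelial markers summed to between 14.9 and 19.0 CPM with TGFB1 and between 14.9 and 17.5 CPM in Vehicle, almost all of it KRT14. The 6 fibroblast and pericyte markers summed to between 11.1 and 14.5 CPM with TGFB1 and between 15.2 and 16.03 CPM in Vehicle, and the sums of this list were lower with TGFB1 in every library. Of these 4 lists only 0 blood, 3 endothelial, 2 epithelial and 3 fibroblast and pericyte genes passed the low-count filter. In the lists edgeR called 0 genes, as did DESeq2 and limma-voom, where edgeR called 3.31% of all tested genes. At an unadjusted p under 0.05 there was 1 (LUM), where 12.3% of all tested genes were. So few tested genes cannot show whether these cell types changed. The part of these markers in the receptor values was not tested.

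Of the 57 receptor genes 42 passed the low-count filter, and most of their summed level lay in 7 of them. On the scale of CPM per kilobase of merged exons (RPKM, the scale used to compare genes), 7 of the 57 genes had a mean of at least 10 over the 6 libraries and 24 had at least 1. The 7 were AXL, EPHA2, ERBB3, MET, EPHA3, RYK and DDR2, in that order, and they held 74.2% of the summed RPKM of the family with TGFB1 and 74.7% in Vehicle. By family, the EphA receptors held the largest share, 22.8% with TGFB1 and 22.2% in Vehicle. The TAM receptors (TYRO3, AXL and MERTK) held 21.0% with TGFB1 and 20.4% in Vehicle, nearly all of it AXL. The ERBB receptors held 13.9% with TGFB1 and 13.7% in Vehicle, most of it ERBB3. Summed over all 57 genes the level was 260.3, 249.5 and 256.3 RPKM in the TGFB1 libraries and 238.8, 237.4 and 241.2 RPKM in the Vehicle libraries, so the sums of the groups did not overlap.

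**Figure D1:**
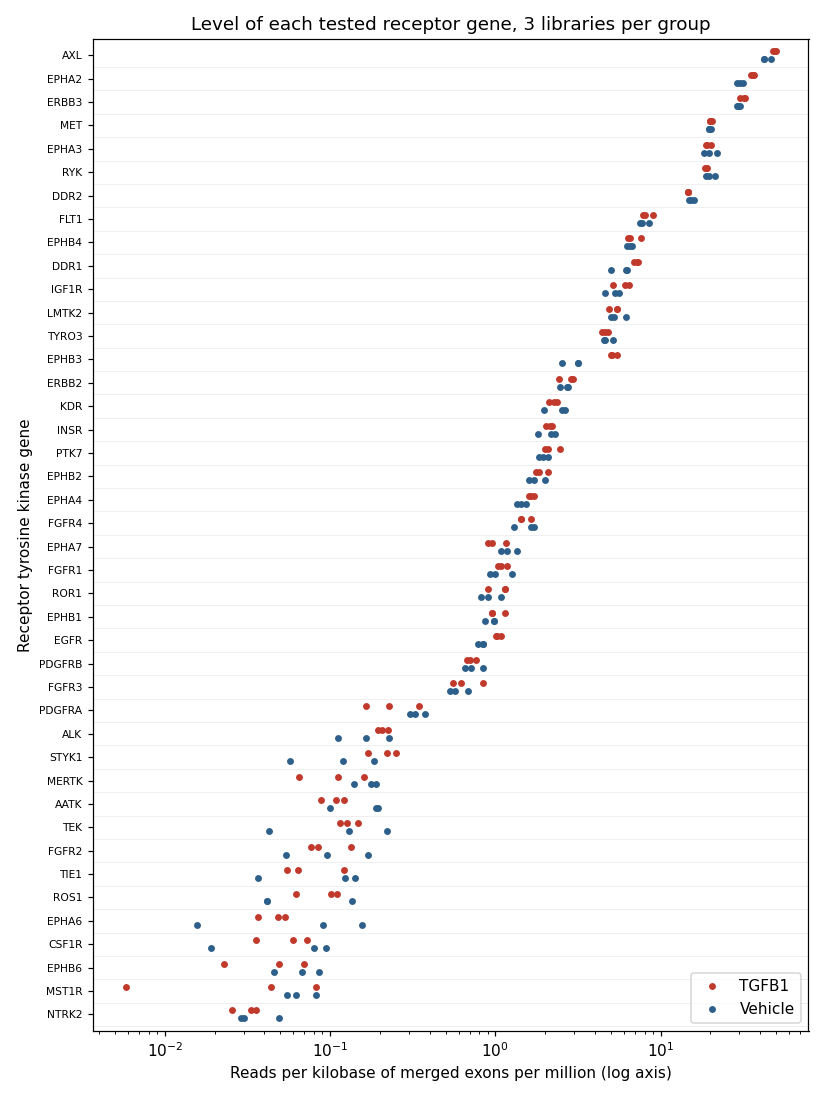
Level of the 42 receptor genes that passed the low-count filter, in RPKM on a log axis, with 1 point per library (red, TGFB1, above blue, Vehicle) and genes ordered by their mean. AXL leads the list in both groups, the points of most genes overlap between the groups, and those of EPHB3 stand clear of each other (mean 5.20 RPKM with TGFB1 and 2.95 RPKM in Vehicle).

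The comparison asks which receptor genes had changed 2 h after TGFB1. Of the 42 members tested, 3 rose and 0 fell past a threshold of 0.05 in edgeR's quasi-likelihood test, with p-values adjusted by Benjamini-Hochberg over the 16690 genes tested. These were EPHB3, EPHA2 and DDR1, 7.14% of the members tested, where 3.31% of all tested genes passed in either direction, 2.43% higher and 0.887% lower. The members were chosen with earlier results of these data known, so such shares are descriptive and were not tested. The rise of EPHB3 was 1.76-fold, while those of DDR1 (1.22-fold) and EPHA2 (1.2-fold) were small. At an unadjusted p under 0.05 there were 7 members, all higher with TGFB1 (16.7%, against 12.3% of all genes), and 0 lower; DESeq2 and limma-voom also called 0 lower members. The median log2 fold change of the tested members was 0.02, against -0.01 over all tested genes, and 22 of the 42 were above 0. In these bulk libraries, fewer cells carrying a transcript and less RNA per cell cannot be told apart.

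The data could resolve small changes for the abundant receptors and not for the scarce ones. Of the 39 tested members that did not pass, 24 had a 95% interval of the log2 fold change inside a 1.5-fold change in either direction. For 12 of these, AXL, ERBB3, MET, EPHA3, RYK, DDR2, FLT1, EPHB4, LMTK2, TYRO3, ERBB2 and INSR, the interval lay inside a 1.2-fold change. Such an interval bounds a change and does not show that there was none. Those of AXL (log2 0.055 to 0.262) and ERBB3 (0.0065 to 0.203) lay wholly above 0. For the other 15, from FGFR3 at a mean of 3.26 CPM with TGFB1 and 2.88 CPM in Vehicle down to MST1R at 0.231 CPM with TGFB1 and 0.349 CPM in Vehicle, changes above 1.5-fold were not excluded at this depth.

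**Figure D2:**
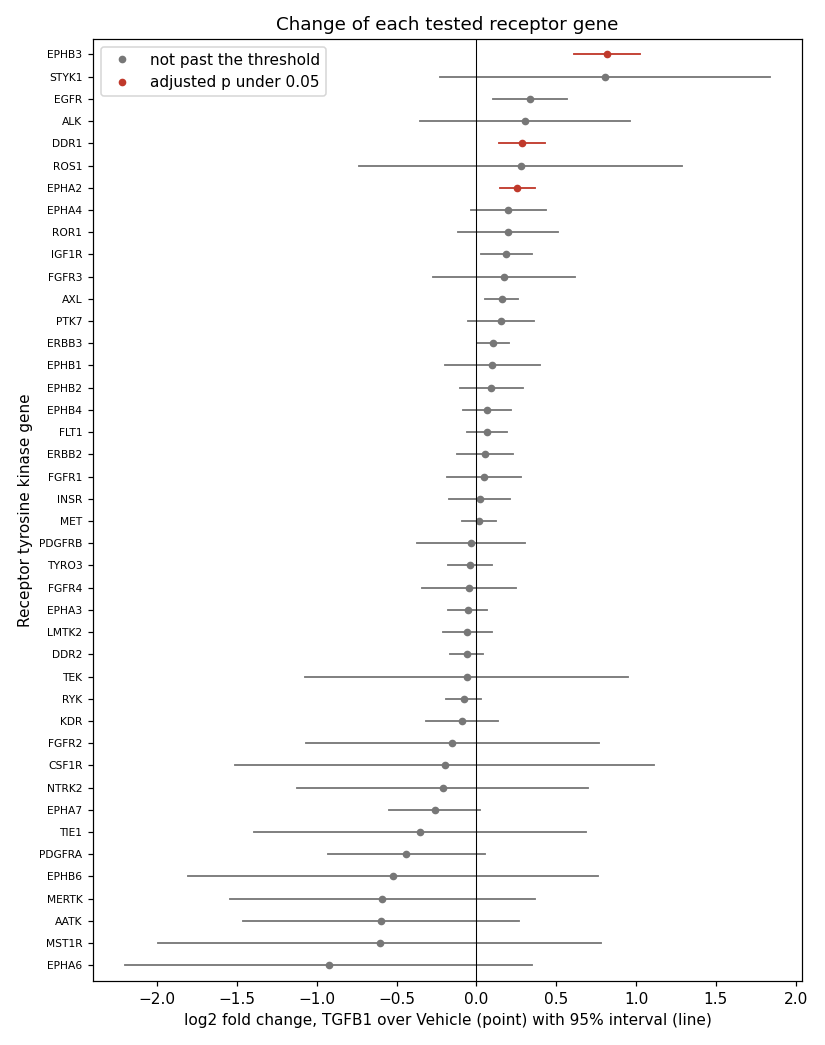
Log2 fold change of each of the 42 tested receptor genes, TGFB1 over Vehicle (point), with its 95% interval (line). EPHB3, DDR1 and EPHA2, in red, are the genes past the threshold, and intervals widen for scarce genes such as EPHA6 and STYK1.

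Eph receptors bind ephrins on neighbouring cells and control cell repulsion and positioning. Of the 3 genes that rose 2 belong to them, 1 of the 5 EphA genes tested and 1 of the 5 EphB genes tested. Whether Eph genes differ from the other families was not tested. EPHB3, a receptor for B-type ephrins (chromosome 3, 184561784 to 184582409, plus strand, GENCODE 29 on GRCh38), had 24.8, 22.8 and 23.1 CPM in the TGFB1 libraries and 14.4, 11.5 and 14.3 CPM in the Vehicle libraries. Every TGFB1 library lay above every Vehicle library, and the gap between the groups exceeded the range within either. The log2 fold change was 0.82 ± 0.10 (SE), with an adjusted p = 5.72e-07 by edgeR. EPHA2, a receptor for A-type ephrins that melanoma cells commonly express (chromosome 1, 16124337 to 16156087, minus strand), had 152.2, 147.3 and 151.2 CPM with TGFB1 and 126.4, 119.9 and 130.8 CPM in Vehicle. The groups again did not overlap, and the log2 fold change was 0.26 ± 0.05 (SE), edgeR adjusted p = 0.00157.

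The stretches before the starts of these genes are shown because they carry the nearest sequence to a rise seen 2 h after the ligand. They are the 250 bases before the RefSeq start (GRCh38.p14), written 5′ to 3′ on the gene's strand, chr3:184561535-184561784 (+) for EPHB3 and chr1:16156070-16156319 (-) for EPHA2, whose last 18 bases lie inside the gene as GENCODE 29 draws it. Capitals mark matches, on either strand, to the SMAD box CAGAC, the GC-rich SMAD motif GGCGC, the AP-1 motif TGANTCA and the cyclic AMP response element TGACGTCA.
EPHB3: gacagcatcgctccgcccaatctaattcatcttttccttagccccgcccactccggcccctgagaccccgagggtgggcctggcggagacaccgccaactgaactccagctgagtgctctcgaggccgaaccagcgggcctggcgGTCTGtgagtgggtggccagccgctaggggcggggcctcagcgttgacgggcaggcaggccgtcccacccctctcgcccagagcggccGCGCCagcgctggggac
EPHA2: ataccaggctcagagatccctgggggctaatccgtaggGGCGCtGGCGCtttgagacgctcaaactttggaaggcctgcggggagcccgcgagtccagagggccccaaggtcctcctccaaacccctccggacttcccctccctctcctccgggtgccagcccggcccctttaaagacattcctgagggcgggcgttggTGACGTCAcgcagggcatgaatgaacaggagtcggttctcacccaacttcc

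The EPHB3 window held 1 SMAD box and 1 GC-rich match, and the EPHA2 window held 2 GC-rich matches and 1 cyclic AMP response element. Such matches are common: among 35116 windows of the same length before RefSeq starts, 38% held the SMAD box, 44.5% the GC-rich motif, 6.57% the AP-1 motif and 1.65% the cyclic AMP response element, the last of which was added to the search after the EPHA2 sequence had been read. Over the 83 windows of the 51 member genes in the RefSeq table the shares were 53%, 50.6%, 7.23% and 2.41%. These are shares of windows and not of genes: a gene counts once per start. DDR1 alone gives 8 windows, some of which overlap and most of which hold a SMAD box. A match is a string of letters and not a measured binding site. DDR1 has 8 RefSeq starts, all inside its annotated gene, and the counts do not say which of them these cells use, so none of its windows is printed.

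The other Eph receptors did not pass the test. EPHA3, more abundant than EPHB3 per length at 19.3 ± 0.705 RPKM with TGFB1 and 20.07 ± 1.87 RPKM in Vehicle (SD, n = 3 each), had a log2 fold change of -0.06 with a 95% interval from -0.18 to 0.06. EPHB4, which binds ephrin-B2 and marks veins in the vessel wall, had 41.8, 40.8 and 48.7 CPM with TGFB1 and 43.4, 42.0 and 40.05 CPM in Vehicle (log2 fold change 0.07, 95% interval -0.09 to 0.22). EPHB2 had a log2 fold change of 0.09 (adjusted p = 0.789 by edgeR) and EPHB1 of 0.10 (adjusted p = 0.868 by edgeR). EPHA4 had 12.1, 12.4 and 12.9 CPM with TGFB1 and 11.6, 10.2 and 10.8 CPM in Vehicle. The groups of EPHA4 did not overlap, but its log2 fold change of 0.20 had an adjusted p of 0.514 by edgeR. EPHA7 had 7.52 ± 0.996 CPM with TGFB1 and 8.99 ± 1.02 CPM in Vehicle (SD, n = 3 each; log2 fold change -0.26). EPHA6, and EPHB6, a member without kinase activity, had at most 0.977 CPM in any library; EPHA6 had a log2 fold change of -0.92 with a 95% interval from -2.20 to 0.35.

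Of the collagen receptors, DDR1 rose and DDR2 did not pass. DDR1 (chromosome 6, 30876421 to 30900156, plus strand) had 65.5, 62.6 and 66.3 CPM with TGFB1 and 56.1, 46.0 and 57.5 CPM in Vehicle. The groups did not overlap, the lowest value being that of Vehicle replicate 2, and the log2 fold change was 0.29 ± 0.07 (SE), edgeR adjusted p = 0.0142. Without Vehicle replicate 2 the log2 fold change was 0.19 and no longer passed (adjusted p = 0.225 by edgeR), and without TGFB1 replicate 1 or 3 the adjusted p was 0.0938 or 0.0878. DDR2, the mesenchymal collagen receptor, had 156.5, 157.0 and 157.9 CPM with TGFB1 and 162.7, 170.1 and 158.7 CPM in Vehicle. All TGFB1 values of DDR2 lay just below all Vehicle values, but the log2 fold change of -0.06 had a 95% interval from -0.16 to 0.04. The difference between the changes of DDR1 and DDR2 was not tested.

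**Figure D3:**
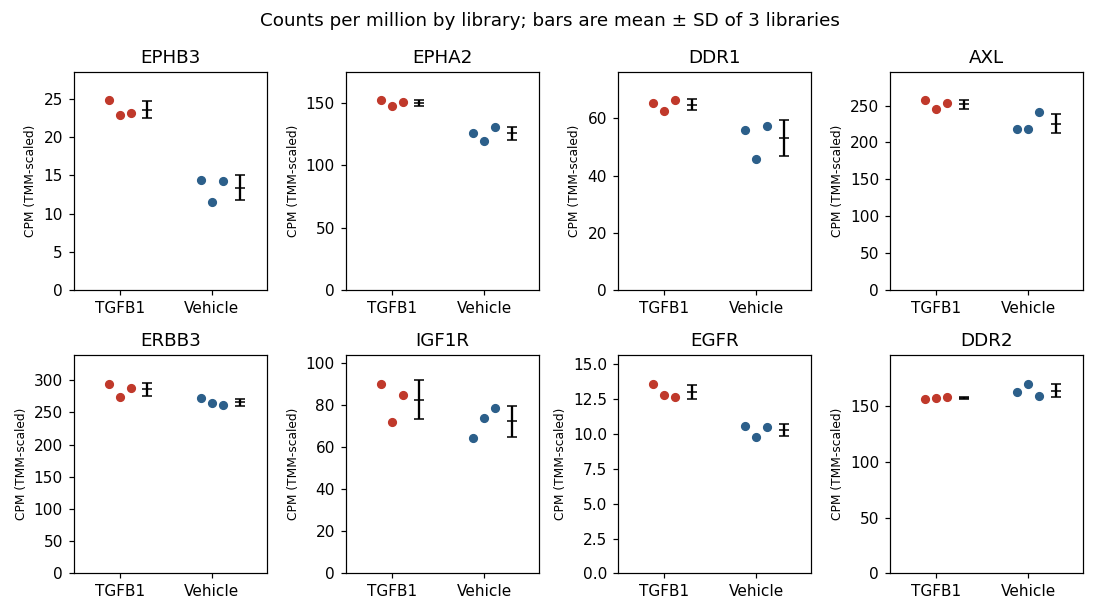
CPM in each library (points; red, TGFB1; blue, Vehicle) with the mean ± SD of the 3 libraries of a group (black), on axes that start at 0. EPHB3, EPHA2 and DDR1 passed the test; AXL, ERBB3, EGFR and DDR2 also have groups that do not overlap and IGF1R has groups that do, and none of these 5 passed.

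AXL, a TAM receptor for the ligand GAS6 and a marker of the invasive, drug-tolerant state of melanoma, had the highest level per length of all members, 48.9 ± 1.18 RPKM with TGFB1 and 43.8 ± 2.60 RPKM in Vehicle (SD, n = 3 each). It had 257.1, 245.3 and 253.5 CPM with TGFB1 and 217.9, 217.9 and 241.1 CPM in Vehicle. The groups did not overlap, with Vehicle replicate 3 nearest to the TGFB1 libraries, and the log2 fold change of 0.16 ± 0.05 (SE) missed the threshold (adjusted p = 0.0924 by edgeR). The adjusted p was 0.0503 by DESeq2. By edgeR it was 0.05002 with a replicate block and 0.145 with upper-quartile scaling. Without Vehicle replicate 3 the log2 fold change was 0.21 and passed (adjusted p = 0.0074 by edgeR), and calls over all genes also went up, from 553 to 923. TYRO3 had 50.4 ± 2.22 CPM with TGFB1 and 51.9 ± 3.63 CPM in Vehicle (SD, n = 3 each), with a log2 change of -0.04. MERTK, the receptor by which phagocytes take up dying cells, was at 0.526 ± 0.223 CPM with TGFB1 and 0.792 ± 0.122 CPM in Vehicle (SD, n = 3 each).

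Among the ERBB receptors, ERBB3, which has little kinase activity of its own and signals in complexes with other ERBB chains, stood far above its partners per length. It had 31.6 ± 1.14 RPKM with TGFB1 and 29.4 ± 0.606 RPKM in Vehicle (SD, n = 3 each), while ERBB2 had 2.75 ± 0.268 RPKM with TGFB1 and 2.65 ± 0.153 RPKM in Vehicle. EGFR had 1.04 ± 0.0421 RPKM with TGFB1 and 0.823 ± 0.0354 RPKM in Vehicle. By library EGFR had 13.6, 12.8 and 12.6 CPM with TGFB1 and 10.6, 9.79 and 10.5 CPM in Vehicle. Its groups did not overlap, and the log2 fold change of 0.34 ± 0.11 (SE) had an adjusted p of 0.118 by edgeR and a 95% interval from 0.11 to 0.57. ERBB3 had 294.6, 274.4 and 287.6 CPM with TGFB1 and 271.7, 263.8 and 261.1 CPM in Vehicle, a log2 fold change of 0.10 (adjusted p = 0.356 by edgeR), again without overlap. That of ERBB2 was 0.06 (adjusted p = 0.883 by edgeR), and 7.41% of the exonic bases of ERBB2 also lie under exons of genes on the other strand. In all, 8 tested members had groups that did not overlap (19%, against 16.4% of all tested genes), 7 of them higher with TGFB1, and 5 of the 8 did not pass the test.

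IGF1R, the receptor for insulin-like growth factors, had 90.1, 72.1 and 84.9 CPM with TGFB1 and 64.4, 73.5 and 78.5 CPM in Vehicle. The groups overlapped, and the log2 fold change was 0.19 ± 0.08 (SE; edgeR adjusted p = 0.29). It passed without TGFB1 replicate 2 (0.28, adjusted p = 0.0295 by edgeR) and without Vehicle replicate 3 (0.25, adjusted p = 0.0432 by edgeR). Calls over all genes were 479 and 923 in these settings, against 553 with all libraries. The insulin receptor gene INSR had 22.2 ± 1.06 CPM with TGFB1 and 21.8 ± 2.50 CPM in Vehicle (SD, n = 3 each), with a log2 change of 0.02 and a 95% interval from -0.17 to 0.21.

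MET, the receptor for hepatocyte growth factor, had 144.7, 139.4 and 140.4 CPM with TGFB1 and 142.6, 138.5 and 138.8 CPM in Vehicle. Its libraries interleaved, and the log2 fold change of 0.02 had a 95% interval from -0.09 to 0.12. MST1R, its relative, was at 1, 8 and 14 counts with TGFB1 and 7, 10 and 15 counts in Vehicle, and 6.78% of its exonic bases also lie under exons of genes on the other strand. RYK, a Wnt receptor with an inactive kinase, had 152.2, 154.2 and 148.6 CPM with TGFB1 and 171.2, 158.4 and 151.5 CPM in Vehicle, with Vehicle replicate 1 the highest (log2 fold change -0.08, 95% interval -0.19 to 0.03). PTK7, another receptor with an inactive kinase that takes part in Wnt and planar polarity signalling, had 19.6 ± 2.24 CPM with TGFB1 and 17.6 ± 1.10 CPM in Vehicle (SD, n = 3 each; log2 fold change 0.15).

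The VEGF receptor genes FLT1 and KDR, best known from endothelium, were both measured. FLT1 had 113.1, 101.8 and 97.97 CPM with TGFB1 and 97.5, 107.3 and 94.3 CPM in Vehicle, overlapping between the groups (log2 fold change 0.06, 95% interval -0.06 to 0.19). KDR had 13.9, 14.8 and 15.5 CPM with TGFB1 and 12.8, 16.7 and 17.4 CPM in Vehicle (log2 fold change -0.09). Of the 6 endothelial markers in the same libraries, ROBO4 had 197, 171 and 152 counts with TGFB1 and 103, 92 and 175 counts in Vehicle (log2 fold change 0.34, adjusted p = 0.49 by edgeR). ESAM had at most 29 counts in any library, PECAM1 19, CDH5 11, VWF 9 and CLDN5 5. The part of these markers in the FLT1 and KDR values was not tested. TEK and TIE1, the angiopoietin receptors of endothelium, had between 12 and 28 counts with TGFB1 and between 5 and 37 counts in Vehicle.

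Of the PDGF receptor family, PDGFRB had 5.10 ± 0.326 CPM with TGFB1 and 5.24 ± 0.668 CPM in Vehicle (SD, n = 3 each). PDGFRA had 3.38, 2.22 and 1.6 CPM with TGFB1 and 3.64, 2.96 and 3.19 CPM in Vehicle. For PDGFRA 2 of the 3 TGFB1 libraries lay below every Vehicle library, and the highest TGFB1 value lay within the Vehicle range (log2 fold change -0.44, adjusted p = 0.497 by edgeR), and 15.8% of its exonic bases are shared with another gene annotated on the same strand. KIT, the stem cell factor receptor on which melanocytes depend, had between 1 and 6 counts with TGFB1 and between 1 and 5 counts in Vehicle, too few to test. CSF1R, the macrophage growth factor receptor, had 6, 13 and 10 counts with TGFB1 and 10, 3 and 17 counts in Vehicle.

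Of the FGF receptors all 4 were tested and 0 passed by edgeR, where 3.31% of all tested genes did, and 0 passed by DESeq2 or limma-voom. At an unadjusted p under 0.05 there were also 0, against 12.3% of all tested genes. With 4 genes these counts do not set the FGF receptors apart from genes in general. FGFR4 had 1.5 ± 0.132 RPKM with TGFB1 and 1.55 ± 0.222 RPKM in Vehicle, and FGFR1 had 1.10 ± 0.0725 RPKM with TGFB1 and 1.06 ± 0.175 RPKM in Vehicle (SD, n = 3 each). FGFR2 was lower per length, at 0.0981 ± 0.0311 RPKM with TGFB1 and 0.107 ± 0.0591 RPKM in Vehicle. The log2 fold changes of the 4 lay between -0.15 for FGFR2 and 0.17 for FGFR3.

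The remaining tested members were scarce, apart from LMTK2 and ROR1. LMTK2, a membrane kinase of the endosome, had 48.07 ± 2.92 CPM with TGFB1 and 50.01 ± 5.92 CPM in Vehicle (SD, n = 3 each), with a log2 fold change of -0.06. ROR1, a WNT5A receptor, had 7.70, 6.09 and 7.71 CPM with TGFB1 and 7.24, 5.49 and 6.09 CPM in Vehicle (log2 fold change 0.20, adjusted p = 0.682 by edgeR). ALK had 50, 57 and 47 counts with TGFB1 and 20, 51 and 42 counts in Vehicle (log2 fold change 0.31, 95% interval -0.35 to 0.96). STYK1 had 25, 20 and 28 counts with TGFB1 and 10, 6 and 22 counts in Vehicle, a log2 fold change of 0.81 with a 95% interval from -0.23 to 1.84. AATK, ROS1 and NTRK2 had log2 fold changes of -0.60, 0.28 and -0.21 on at most 42 counts in any library.

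The low-count filter left out 15 members, EPHA1, FLT3, ROR2, KIT, LTK, MUSK, EPHA10, ERBB4, EPHA8, NTRK3, FLT4, RET, EPHA5, LMTK3 and INSRR. Their counts summed over the 6 libraries ran from 1 for INSRR to 55 for NTRK3, and the highest in any library was 21. NTRK3, the neurotrophin-3 receptor, had 9, 11 and 21 counts with TGFB1 and 6, 3 and 5 counts in Vehicle, without overlap but not tested. RET, EPHA5 and LMTK3 had at most 6 counts in any library.

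The ligands, adaptors and feedback regulators of these receptors were read from 3 further lists. These lists were chosen with earlier results of these data known, so their shares of calls are descriptive and were not tested. Of 48 ligand genes 38 were tested, and 4 rose and 1 fell (13.2%, against the 3.31% of all genes). PDGFA, a ligand of PDGFRA, had 23.1, 23.8 and 25.1 CPM with TGFB1 and 6.91, 6.83 and 6.87 CPM in Vehicle, a log2 fold change of 1.80 ± 0.11 (SE; edgeR adjusted p = 1.02e-14). The libraries of the 2 groups lay far apart for PDGFA, while those of its receptor gene PDGFRA overlapped between the groups. VEGFA, the ligand of FLT1 and KDR, had a log2 fold change of 1.05 ± 0.07 (SE), and FGF1, which binds all FGF receptors, of 0.58 ± 0.15 (SE; edgeR adjusted p = 0.0239). Of the 6 EGFR ligand genes tested, 1 rose, 1 fell and 4 did not pass (HBEGF, BTC, EREG and EGF, adjusted p = 0.516, 0.851, 0.797 and 0.903 by edgeR). TGFA rose to 297.0 ± 8.61 CPM with TGFB1, against 245.2 ± 8.45 CPM in Vehicle, and AREG fell to 2.97 ± 0.316 CPM with TGFB1, against 5.6 ± 0.622 CPM in Vehicle (SD, n = 3 each). Their adjusted p-values by edgeR were 0.000226 for TGFA and 0.00143 for AREG. FGF1 lost its call with limma-voom (adjusted p = 0.0548) and without Vehicle replicate 1 or 2 or TGFB1 replicate 1 or 3 (adjusted p = 0.0641, 0.194, 0.113 and 0.239 by edgeR).

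The ligands of the Eph receptors that rose did not pass the test. EFNA1, an ephrin that binds EPHA2, had 8.40, 9.97 and 10.6 CPM with TGFB1 and 10.96, 10.9 and 11.6 CPM in Vehicle (log2 fold change -0.21, adjusted p = 0.532 by edgeR). EFNB2 had 25.9 ± 0.441 CPM with TGFB1 and 28.7 ± 3.30 CPM in Vehicle, and EFNB1 had 7.02 ± 0.698 CPM with TGFB1 and 7.14 ± 1.31 CPM in Vehicle (SD, n = 3 each). EFNB3, at 1.84 ± 0.582 CPM with TGFB1 and 1.06 ± 0.598 CPM in Vehicle, had a log2 fold change of 0.78 (adjusted p = 0.341 by edgeR). Of ligands for the abundant receptors, HGF had between 1 and 5 counts with TGFB1 and between 2 and 19 counts in Vehicle. GAS6 had 7.13 ± 0.317 CPM with TGFB1 and 6.65 ± 1.3 CPM in Vehicle, and the ERBB3 ligand gene NRG1 had 15.3 ± 1.47 CPM with TGFB1 and 16.4 ± 3.18 CPM in Vehicle (SD, n = 3 each).

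Of 29 adaptor, docking and co-receptor genes 27 were tested, and 2 rose and 2 fell (14.8%, against 3.31% of all genes). SH2B3, an adaptor that dampens receptor signalling, had 296.7, 276.6 and 270.8 CPM with TGFB1 and 206.0, 202.5 and 217.4 CPM in Vehicle, a log2 fold change of 0.43 ± 0.05 (SE; edgeR adjusted p = 1.6e-07). NRP2, a co-receptor of the VEGF receptors, rose by the same measure by 0.42 ± 0.06 (SE). IRS2, which docks on the insulin and IGF receptors, fell by 0.23 on the log2 scale, and PIK3R1, the regulatory subunit of PI3K, fell by 0.31. IRS2 lost its call with total-count scaling (adjusted p = 0.0724), without Vehicle replicate 2 or 3 (0.106 and 0.0532) and without TGFB1 replicate 1 or 2 (0.065 and 0.214). PIK3R1 lost it without Vehicle replicate 2 (adjusted p = 0.158 by edgeR) or TGFB1 replicate 2 (0.106), and without either of these libraries the list held 2 calls. Calls over all genes were 381 and 479 in these settings, against 553 with all libraries. The adaptor genes GRB2 and SHC1 had log2 fold changes of -0.04 and -0.02.

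Of 27 feedback and turnover genes 24 were tested, and 2 rose and 2 fell (16.7%, against 3.31% of all genes). LRIG3, a leucine-rich repeat membrane protein related to the ERBB inhibitor LRIG1, had 129.0, 115.9 and 126.6 CPM with TGFB1 and 50.9, 46.1 and 51.1 CPM in Vehicle. The groups lay far apart, with a log2 fold change of 1.33 ± 0.06 (SE; edgeR adjusted p = 1.12e-17). SOCS3, an inhibitor of cytokine receptor signalling, rose by 0.63 ± 0.10 (SE) on the log2 scale. ERRFI1, whose protein binds and blocks the EGFR kinase, fell to 230.1 ± 13.6 CPM with TGFB1, against 272.8 ± 7.03 CPM in Vehicle (SD, n = 3 each), with a log2 change of -0.25. SOCS5, another suppressor of cytokine signalling linked to EGFR turnover, fell by 0.28 on the log2 scale. ERRFI1 lost its call without TGFB1 replicate 3 (adjusted p = 0.0601 by edgeR) and SOCS5 without TGFB1 replicate 1 (0.0716), and the list held 7 calls without Vehicle replicate 3. Without that library calls over all genes also went up, to 923 of 17193 genes from 553 of 16690 with all libraries. LRIG1 itself missed the threshold, with 13.9 ± 0.567 CPM with TGFB1 and 10.6 ± 0.879 CPM in Vehicle (SD, n = 3 each; adjusted p = 0.0575 by edgeR), and the ubiquitin ligase gene CBL had a log2 fold change of 0.06.

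**Figure D4:**
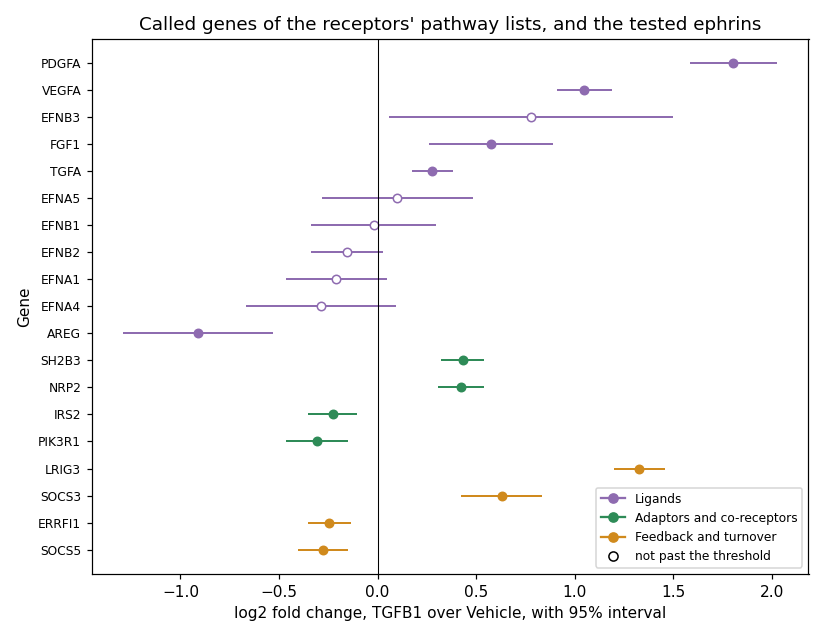
Log2 fold change with its 95% interval for the 13 ligand, adaptor and feedback genes past the threshold and for the 6 tested ephrin genes (open points, not past it). PDGFA (1.80), LRIG3 (1.33) and VEGFA (1.05) have the highest values and AREG (-0.91) the lowest.

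The rises of EPHB3 and EPHA2 were called under each of the 14 alternatives tried, and that of DDR1 under 11 of them. Leaving out each library in turn, the log2 fold change of EPHB3 ran from 0.72 to 0.87 and that of EPHA2 from 0.23 to 0.29.

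**Figure D5:**
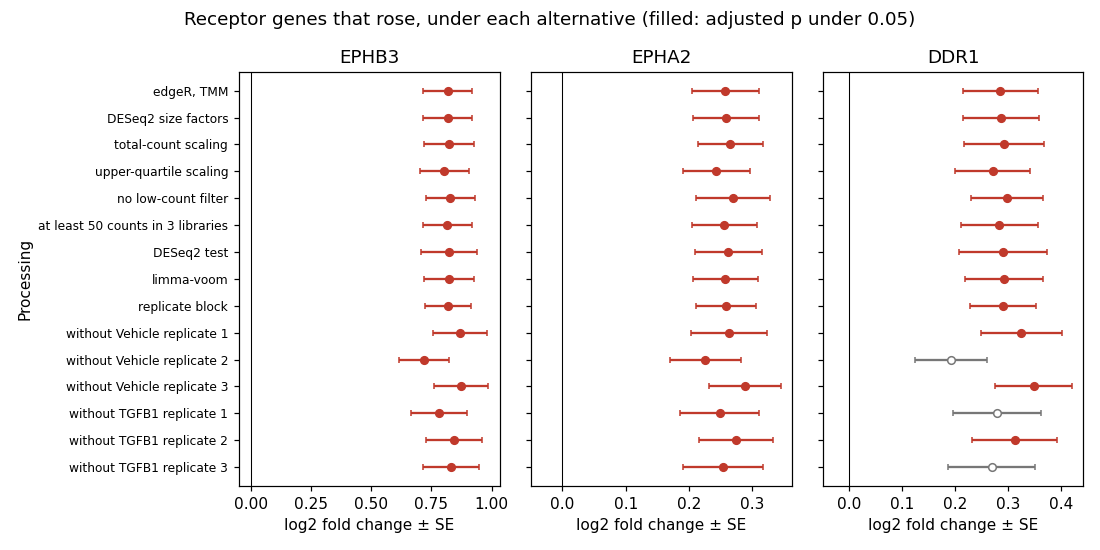
Log2 fold change ± SE of the 3 receptor genes that rose, under the main processing (top line) and each of the 14 alternatives. Filled points passed an adjusted p of 0.05; EPHB3 and EPHA2 are filled throughout, and DDR1 is open without Vehicle replicate 2 and without TGFB1 replicate 1 or 3.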

How the data were processed

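The authors deposited unnormalised whole-number counts for each Ensembl gene ID in 6 RNA-seq libraries. Per the submitters' processing notes the authors used cutadapt, TopHat2 2.1 and HTSeq with GRCh38. The sources used here do not give the annotation release, counting mode or strand setting. Ribosomal RNA was depleted, per the labels' protocols, although the labels' molecule field reads polyA RNA. Low-count genes were removed by filterByExpr of edgeR 4.0.16 (R 4.3.3), at a minimum count of 10 and a minimum total of 15. TMM factors set the effective library sizes, on which CPM are based, and RPKM divide CPM by the merged exon length of all isoforms in GENCODE 29. A 2-group quasi-likelihood model with robust dispersion was fitted, after the procedure had been tested on simulated data. P-values were adjusted over all tested genes. The SE is the absolute log2 fold change divided by the square root of F. Members and lists were chosen with earlier results of these data known. Named genes are members past the threshold or with an unadjusted p under 0.05, the 12 most abundant per length, and up to 6 called genes per pathway list; other members are given by level. Alternatives were DESeq2 size factors, total-count and upper-quartile scaling, no filter, at least 50 counts in 3 libraries, DESeq2 1.42.0, limma-voom (limma 3.58.1), a replicate block, and leaving out each library.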

Additional observations from a re-analysis of the deposited data

How the results depend on the processing

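The 3 calls among the receptor genes held under each of the 8 alternatives that kept all libraries, with 496 to 603 calls over all genes. Leaving out 1 library gave 2 to 5 calls among the receptors, all higher. Over all genes it gave 365 to 923 calls, 264 to 683 of them higher and 97 to 240 lower, with the most without Vehicle replicate 3. It gave 2 to 4 calls among adaptors, 3 to 7 among feedback genes and 4 to 5 among ligands. Of 378 values of 27 named genes, 355 kept their direction and side of the threshold, 17 lost a call and 3 gained one. The other 3 changed sign near 0, none past the threshold: EPHA3 ran from -0.115 to 0.0207 and LMTK2 from -0.116 to 0.0439, positive without Vehicle replicate 2, and EPHB4 from -0.0171 to 0.118, negative without TGFB1 replicate 3; the cause was not tested. Same-numbered libraries did not deviate together (r = -0.0296, 0.0418 and 0.0076), and differently numbered ones had r from -0.0536 to 0.0471. These values give no sign of pairing by number but cannot exclude it. With the replicate block 601 genes and the same number of receptors, 3, were called. Scaling moved the median of all genes by less than 0.1. At this depth 15 receptors had too few counts to test, and for 15 tested ones the 95% interval reached past a 1.5-fold change.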

Other observations

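Among the 27 receptor genes with a mean under 1 CPM, Vehicle replicate 3 had the highest value of the Vehicle libraries in 17, Vehicle replicate 1 in 6 and Vehicle replicate 2 in 4. Among the 30 receptor genes at 1 CPM or more it was the highest in 10, Vehicle replicate 1 in 13 and Vehicle replicate 2 in 7. EPHA1 shows this most plainly, with 11, 9 and 4 counts in the TGFB1 libraries and 0, 0 and 20 counts in Vehicle replicates 1, 2 and 3. Genes with at least 1 count numbered 27844 to 28146 in the TGFB1 libraries and 27104, 27693 and 29097 in Vehicle replicates 1, 2 and 3. The part of this in the values of scarce receptors was not tested.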
